A study of Mus musculus with 12 samples.

Results

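The genes of the MHC class II pathway were followed through tumours of mouse colorectal cancer grown in fatty or healthy liver, with or without an antiangiogenic agent. The set was defined by name as 10 genes, and 9 of the 10 had an array row that carried a single gene symbol. These were the class II chain genes H2-Aa, H2-Ab1 and H2-Eb1, the transactivator gene Ciita, the DM genes H2-DMa, H2-DMb1 and H2-DMb2, and the DO genes H2-Oa and H2-Ob. The tenth, Cd74, the invariant chain gene, lay only on a row shared with another symbol and is not reported here. All 9 lay above the low-value limit of 4.93, the median of the whole table on the log2 scale, on each of the 12 arrays. They were among 13286 genes tested, of 22180 genes with a row of their own.

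MHC class II molecules are pairs of an alpha and a beta chain that carry peptides from swallowed material to the surface of antigen-presenting cells, where CD4 T cells read them. H2-Aa and H2-Ab1 encode the 2 chains of I-A, and H2-Eb1 encodes the beta chain of I-E. New molecules are held by the invariant chain, endosomal proteases trim that chain to a short remnant, DM exchanges the remnant for peptide, and DO restrains DM. Ciita does not bind DNA itself but is recruited by factors seated on the X and Y boxes of class II promoters. Dendritic cells, macrophages and B cells carry class II constitutively or readily, and many other cells do so under interferon gamma.

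The 12 arrays formed 4 groups, each of 3 mice per the design text: tumours in fatty liver under anti-VEGF, tumours in fatty liver under vehicle, tumours in healthy liver under anti-VEGF, and tumours in healthy liver under vehicle. All of them were colorectal cancer tissue that had been injected into the liver. The name of the tumour line, the strain, sex and age of the mice, the diet and the dose of the agent are not stated in the labels. The comparisons ask how class II genes in the tumour differ with the state of the liver, with anti-VEGF, and with the combination of both.

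The promoters are shown because they hold the boxes through which Ciita acts. The RefSeq promoter table (GRCm38.p6, 250 bases before to 50 after each start) held 7 of the 10 genes. Each stretch below runs 5′ to 3′ on the gene's strand, from 45 bases before the Y box core to 5 bases after it. Capitals mark the cores that were searched on both strands: ATTGG for the Y box, AGNNACNGA for the X box and TGACGTCA for the cyclic AMP response element that overlaps the X box region.
H2-Aa, chr17:34287862-34287916, minus strand: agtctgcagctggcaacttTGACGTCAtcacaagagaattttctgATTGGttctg
H2-Eb1, chr17:34305763-34305817, plus strand: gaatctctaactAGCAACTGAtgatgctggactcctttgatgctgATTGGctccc
H2-DMb1, chr17:34153085-34153139, plus strand: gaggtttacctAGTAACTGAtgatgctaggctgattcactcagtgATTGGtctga
H2-DMb2, chr17:34145114-34145168, plus strand: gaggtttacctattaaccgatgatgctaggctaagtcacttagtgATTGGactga
H2-Oa, chr17:34092291-34092345, plus strand: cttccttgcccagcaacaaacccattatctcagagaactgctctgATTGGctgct
H2-Ob, chr17:34238803-34238857, plus strand: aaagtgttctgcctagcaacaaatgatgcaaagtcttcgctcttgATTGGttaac
A Y box core was present in all 7 genes (for H2-DMa in the second of its 2 listed promoters), and 37.4% of the 32851 promoters in the table hold those letters. The X box core lay 24 bases before the Y box core in H2-Eb1 and 25 bases before it in H2-DMb1. An X core at either distance before a Y core was found in 7 promoters, or 0.0213%, a spacing chosen after these stretches had been read. H2-DMb2 differs from H2-DMb1 within the X box letters and gave no X match. H2-Aa had no X match and held the cyclic AMP element 18 bases before its Y core. The X core alone is found in 17.7% and the cyclic AMP element in 1.79% of all promoters. A match is a description of letters, and no binding was measured.

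Several arrays have to be known before the values are read. Arrays 1 and 3 of fatty liver under vehicle, arrays 1 and 3 of healthy liver under vehicle and all 3 arrays of healthy liver under anti-VEGF were alike within their group to an SD of 0.148 to 0.163 over the tested genes. Other pairs within a group differed by 0.391 to 0.636. The labels call the replicates biological, and p-values measure the spread between these arrays. Averaging the alike arrays left 3, 2, 1 and 2 arrays in the 4 groups, in the order given above. Xist, the RNA of the inactive X chromosome, read 10.58 and 10.45 on vehicle arrays 1 and 3 of fatty liver and 8.1 and 8.43 on those of healthy liver, against 4.32 or less on the other arrays. Uty, a Y chromosome gene, read 8.27, 8.4 and 8.03 in fatty liver and 5.39, 5.49 and 5.54 in healthy liver under anti-VEGF. On vehicle array 2 Uty read 8.54 in fatty and 7.27 in healthy liver, against 3.84 to 4.16 on vehicle arrays 1 and 3. The Y genes Eif2s3y and Kdm5d followed this pattern. Under anti-VEGF Eif2s3y read 8.32, 8.29 and 7.23 in fatty liver and 4.76, 5.18 and 4.96 in healthy liver. Kdm5d read 6.64, 7.24 and 6.34 against 4.05, 4.38 and 4.42, so all 3 Y genes set the livers apart there. None of these 4 genes was called between livers by limma, whose shared spread took in the vehicle groups. In fatty liver under vehicle the SD was 2.62 for Uty, 3.14 for Eif2s3y and 2.22 for Kdm5d. The part of these 4 genes in the class II differences was not tested. Array 2 of healthy liver under vehicle and array 3 of fatty liver under anti-VEGF stood apart from their groups. Some of the values that rest on them are given without them too. Liver differences were broad: limma with Benjamini-Hochberg adjustment called 45.8% of all tested genes between livers under anti-VEGF and 49.6% under vehicle, and 27.6% and 30.4% of all tested genes were called lower in fatty liver.

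Class II genes were higher in fatty liver tumours than in healthy liver tumours under both treatments. Under anti-VEGF 8 of 9 were called higher and under vehicle 9 of 9, and 18.2% and 19.2% of all tested genes were called higher in these comparisons. The median log2 difference of the 9 was 1.95 under anti-VEGF and 2.02 under vehicle, beside medians over all tested genes of -0.13 and -0.12. The arrays of the 2 livers did not overlap for 8 of the 9 genes under anti-VEGF and for 9 of 9 under vehicle, as they did not, in the same direction, for 21.9% and 23.6% of all tested genes. The tissue was measured in bulk, so fewer cells of a type and less RNA per cell cannot be told apart. With alike arrays averaged, adjusted p stayed under 0.05 for H2-DMa alone under anti-VEGF and for 5 of 9 under vehicle (highest adjusted p 0.38 and 0.115), while log2 differences ranged from 0.82 to 2.27 and from 0.81 to 2.3. Without the 4 vehicle arrays high in Xist, which left 1 array against 1 under vehicle, 7 of 9 were called higher there, and 4.74% of all genes. With no spread of their own under vehicle, those 7 calls rest on the spread between the anti-VEGF arrays, 3 of which are alike.

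H2-Aa, the alpha chain of I-A, read 11.28, 11.43 and 10.97 in fatty liver under anti-VEGF and 9.29, 9.19 and 9.34 in healthy liver under anti-VEGF. Under vehicle it read 11.49, 11.83 and 11.47 in fatty liver and 8.82, 10.34 and 8.87 in healthy liver. The fatty liver arrays all lay above the healthy liver arrays, and vehicle array 2 of healthy liver came closest to them. The log2 difference was 1.95 (SE 0.34, limma adjusted p = 0.00137, 3.87-fold) under anti-VEGF and 2.25 (adjusted p = 0.000709, 4.76-fold) under vehicle.

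H2-Ab1, the beta chain of I-A, read 12.26, 12.3 and 12.03 in fatty liver under anti-VEGF and 10.1, 10.01 and 9.99 in healthy liver under anti-VEGF. Its vehicle values were 12.24, 12.57 and 12.24 in fatty liver and 9.77, 11.24 and 9.78 in healthy liver. The groups of the 2 livers did not overlap under either treatment. The gene was 4.49-fold higher in fatty liver under anti-VEGF (log2 2.17, SE 0.32, limma adjusted p = 0.000579) and 4.25-fold higher under vehicle (adjusted p = 0.000816).

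H2-Eb1, the beta chain of I-E, whose promoter has the X and Y cores shown above, read 11.12, 11.44 and 10.99 in fatty liver under anti-VEGF and 9.13, 9.08 and 9.16 in healthy liver under anti-VEGF. In vehicle tumours it read 11.24, 11.54 and 11.22 in fatty liver and 8.62, 10.29 and 8.8 in healthy liver. Again no healthy liver array reached a fatty liver one. The log2 differences were 2.06 (SE 0.35, limma adjusted p = 0.00132) under anti-VEGF and 2.1 (adjusted p = 0.00124) under vehicle.

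The 3 chain genes moved together from array to array. After each gene's own mean over the 12 arrays was subtracted, their profiles differed by a root mean square of 0.09 (H2-Ab1 and H2-Eb1) to 0.11 (H2-Aa and H2-Ab1) on the log2 scale. Vehicle array 2 of healthy liver exceeded the mean of its group's other arrays by 1.5 for H2-Aa, 1.47 for H2-Ab1 and 1.59 for H2-Eb1. Without that array the vehicle liver difference of H2-Aa was 2.75, and those of the 9 class II genes ran from 0.83 to 2.75.

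**Figure D1:**
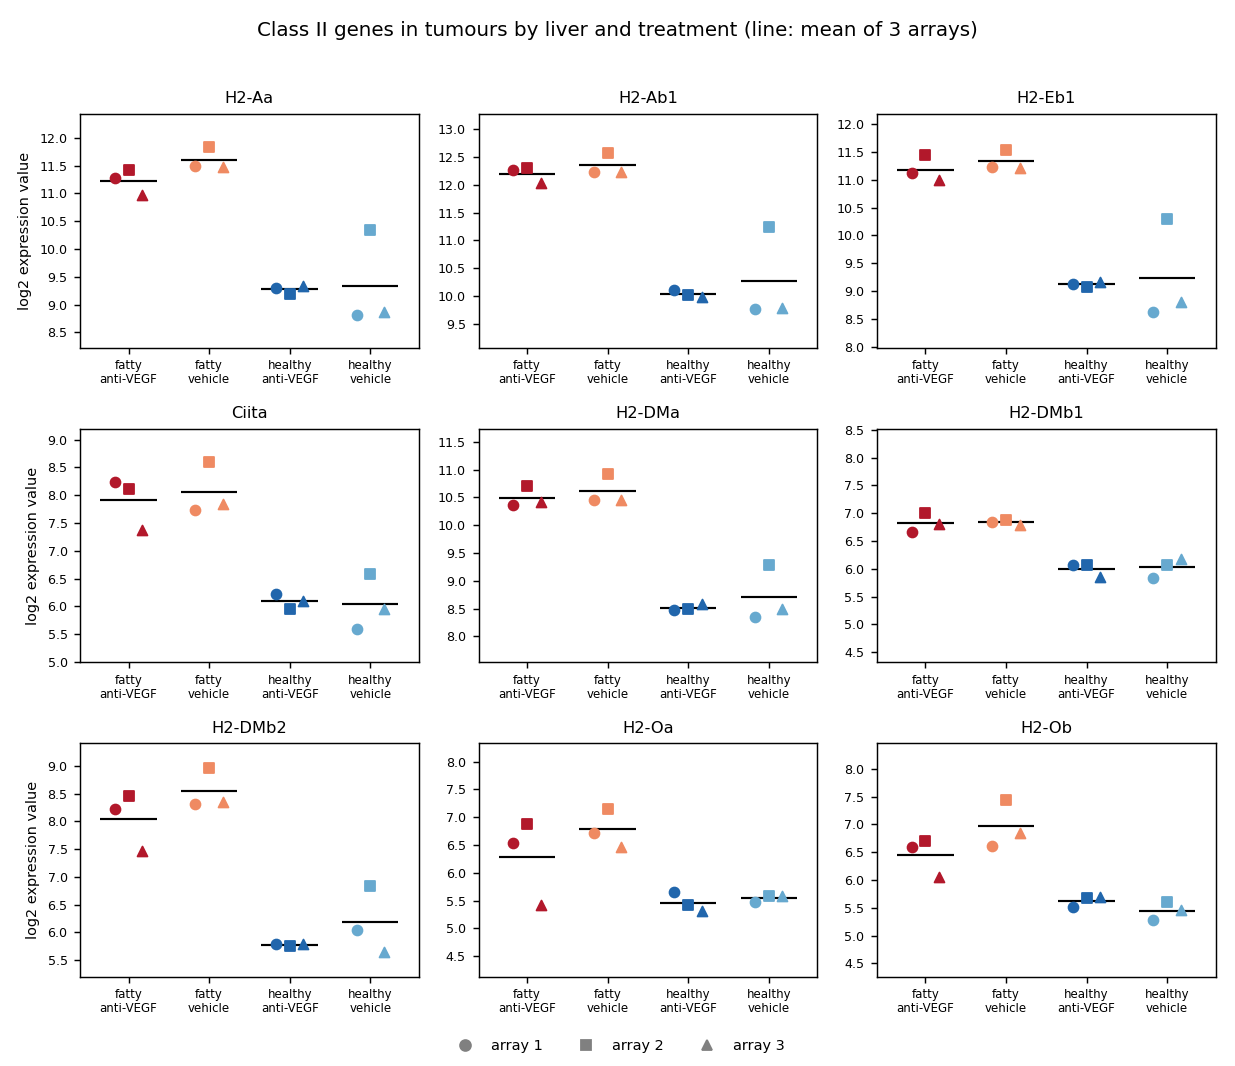
Log2 expression values of the 9 class II genes on each array, with tumours in fatty liver under anti-VEGF, fatty liver under vehicle, healthy liver under anti-VEGF and healthy liver under vehicle from left to right. Points are arrays and lines are means of 3; panels span the same number of log2 units around different centres, and the squares of healthy liver under vehicle lie near 10.3 for H2-Aa and H2-Eb1, above the other arrays of that group.

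Ciita, the regulator that switches class II genes on, was higher in fatty liver as well. It read 8.24, 8.12 and 7.37 in fatty liver under anti-VEGF and 6.22, 5.96 and 6.1 in healthy liver under anti-VEGF. Under vehicle it read 7.74, 8.59 and 7.85 in fatty liver and 5.6, 6.58 and 5.95 in healthy liver. The livers did not overlap under either treatment, although the spread within groups was wide, with an SD of 0.47 and 0.46 in the fatty liver groups under anti-VEGF and vehicle. The log2 difference was 1.82 (SE 0.31, 95% interval 1.14 to 2.49, limma adjusted p = 0.00121) under anti-VEGF and 2.02 (interval 1.34 to 2.69, adjusted p = 0.000749) under vehicle. Ciita's difference between livers fell short of that of H2-Aa by 0.19 on the log2 scale, pooled over treatments, which did not pass an exact permutation test (two-sided, Benjamini-Hochberg p = 0.367).

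DM, the editor of class II peptides, is a pair of an alpha chain from H2-DMa and a beta chain from H2-DMb1 or H2-DMb2. H2-DMa read 10.37, 10.71 and 10.41 in fatty liver under anti-VEGF and 8.47, 8.5 and 8.58 in healthy liver under anti-VEGF. In vehicle tumours it read 10.45, 10.92 and 10.46 in fatty liver and 8.35, 9.29 and 8.5 in healthy liver. No array of one liver reached the other. Its log2 difference was 1.98 (SE 0.22, limma adjusted p = 0.000116) under anti-VEGF and 1.89 (adjusted p = 0.000226) under vehicle, and its adjusted p of 0.0422 with alike arrays averaged was the lowest of the 9 under anti-VEGF.

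The beta chain genes differed in how much they rose. H2-DMb2 read 8.23, 8.45 and 7.47 in fatty liver under anti-VEGF and 5.79, 5.75 and 5.8 in healthy liver under anti-VEGF, and 8.32, 8.96 and 8.35 in fatty liver under vehicle and 6.05, 6.84 and 5.65 in healthy liver under vehicle. H2-DMb1 read 6.67, 7 and 6.8 in fatty liver under anti-VEGF and 6.07, 6.06 and 5.86 in healthy liver under anti-VEGF, and 6.85, 6.88 and 6.78 in fatty liver under vehicle and 5.84, 6.06 and 6.18 in healthy liver under vehicle. Neither gene's livers overlapped, and the distance between them was wide for H2-DMb2 and narrow for H2-DMb1. H2-DMb2 was 4.83-fold and 5.15-fold higher in fatty liver under anti-VEGF and vehicle (log2 2.27 and 2.36, limma adjusted p = 0.000423 and 0.000424). H2-DMb1 was 1.77-fold and 1.75-fold higher (log2 0.83 and 0.81, adjusted p = 0.00037 and 0.000508). Of all pairs among the 9 genes, these close paralogs had the most unlike profiles, with a root mean square difference of 0.86. How far probes of one read RNA of the other was not tested.

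DO, the brake on DM, is encoded by H2-Oa and H2-Ob and is best known from B cells and some dendritic cells. H2-Ob read 6.59, 6.71 and 6.05 in fatty liver under anti-VEGF and 5.51, 5.67 and 5.7 in healthy liver under anti-VEGF. Its values under vehicle were 6.61, 7.44 and 6.85 in fatty liver and 5.28, 5.6 and 5.46 in healthy liver. The livers did not overlap, and array 3 of fatty liver under anti-VEGF was the lowest fatty liver array. The log2 difference was 0.82 (SE 0.22, limma adjusted p = 0.0127) under anti-VEGF, with an adjusted p of 0.0523 without array 2 of fatty liver under anti-VEGF, and 1.52 (adjusted p = 0.00058) under vehicle.

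H2-Oa read 6.54, 6.88 and 5.42 in fatty liver under anti-VEGF and 5.65, 5.42 and 5.31 in healthy liver under anti-VEGF. Under vehicle it read 6.72, 7.15 and 6.47 in fatty liver and 5.48, 5.58 and 5.58 in healthy liver. The livers overlapped under anti-VEGF and were apart under vehicle; under anti-VEGF array 3 of fatty liver lay within the range of healthy liver. The log2 difference was 0.82 (SE 0.31, limma adjusted p = 0.0524) under anti-VEGF, the only one of the 18 liver comparisons of these genes that missed the threshold, and 1.23 (adjusted p = 0.0089) under vehicle. Without array 3 of fatty liver under anti-VEGF the difference was 1.25 (adjusted p = 0.00063). H2-Oa and H2-Ob had profiles within 0.26 of each other.

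The size of the liver difference was then compared between genes, each of the other 8 against H2-Aa, by exact permutation of the liver label within each treatment (400 arrangements, two-sided, smallest possible p 0.005). The liver differences of 3 genes differed from that of H2-Aa after Benjamini-Hochberg adjustment over the 8. H2-DMb1 rose less by 1.28 on the log2 scale (p = 0.005, adjusted 0.04), H2-Oa by 1.07 and H2-Ob by 0.93 (exact p = 0.015 and adjusted 0.04 for each). H2-Ab1, H2-Eb1, Ciita, H2-DMa and H2-DMb2 differed from H2-Aa by between -0.19 and 0.22 and did not pass. The 400 arrangements count alike arrays as separate, and these p-values make no allowance for their likeness. In healthy liver the group means of H2-DMb1, H2-Oa and H2-Ob were 5.45 to 6.03 and those of H2-DMb2 5.78 under anti-VEGF and 6.18 under vehicle, beside the limit of 4.93. The part of the distance to the limit in these differences was not tested.

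**Figure D2:**
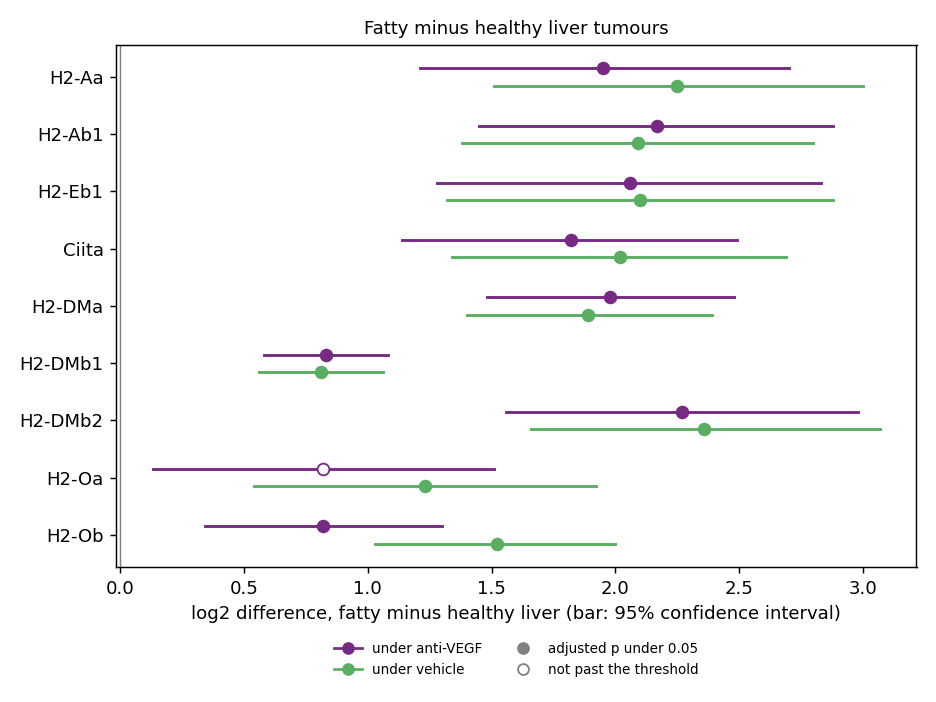
Log2 difference of each class II gene between fatty and healthy liver tumours under anti-VEGF (upper of each pair) and vehicle (lower), with 95% intervals from limma and filled points for adjusted p under 0.05. H2-DMb1, H2-Oa and H2-Ob sit at 0.81 to 1.52 and the other 6 genes at 1.82 to 2.36.

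H2-Eb2, a beta chain paralog next to H2-Eb1 and outside the 9, was measured above the limit in fatty liver only. It read 6.87, 7.2 and 4.25 in fatty liver under anti-VEGF and 3.95, 3.78 and 4.19 in healthy liver under anti-VEGF. In vehicle tumours it read 7.76, 8.39 and 7.61 in fatty liver and 3.99, 4.55 and 4.22 in healthy liver. Array 3 of fatty liver under anti-VEGF stood at the level of the healthy liver arrays, all of which lay below the limit. The gene was therefore tested only through its fatty liver arrays, and its differences are taken against values not told apart from background. The log2 difference was 2.13 (SE 0.61, limma adjusted p = 0.0177) under anti-VEGF, a call lost without array 1 or 2 of fatty liver or array 2 of healthy liver under anti-VEGF, and 3.67 (adjusted p = 0.00123) under vehicle. Both calls were lost with alike arrays averaged (adjusted p = 0.29 and 0.0679). H2-Ea, the alpha chain of I-E, which RefSeq lists as a transcribed pseudogene, stayed below the limit on every array, between 3.73 and 4.16.

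Anti-VEGF was followed by no called change in class II genes in either liver. In fatty liver 0 of 9 passed limma's adjusted threshold, where 0.00753% of all genes did, and 1 of 9 had an unadjusted p under 0.05. All 9 differences were below 0, from -0.52 to -0.01 with a median of -0.15, and the lowest adjusted p was 0.795. H2-Ob had the largest, -0.52 (SE 0.22, unadjusted p = 0.0385), and H2-Aa alone had groups that did not overlap, 10.97 to 11.43 under anti-VEGF and 11.47 to 11.83 under vehicle, as 4.99% of all genes did in that direction. The 95% interval for H2-Aa ran from -1.11 to 0.38 and that for Ciita from -0.83 to 0.53.

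In healthy liver 0 of 9 passed limma's adjusted threshold, as did 0% of all genes, and 0 of 9 had an unadjusted p under 0.05. Differences ran from -0.4 to 0.18, with 7 below and 2 above 0. These values turned on single arrays: without array 2 of healthy liver under vehicle they ran from -0.07 to 0.43, with 6 of 9 above 0 and 0 called. Without the 4 vehicle arrays high in Xist, which left that same array alone in its group, 4 of 9 were called lower under anti-VEGF, as were 5.26% of all genes. These were H2-Aa (-1.07, adjusted p = 0.0258), H2-Ab1 (-1.21, adjusted p = 0.00668), H2-Eb1 (-1.17, adjusted p = 0.0161) and H2-DMa (-0.77, adjusted p = 0.0469). The lone array was assumed to vary like the other groups.

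Liver and treatment gave no called interaction. This term, the difference between the treatment differences of fatty and healthy liver, called 0 of 9 genes by limma and 0% of all genes, and 1 of 9 had an unadjusted p under 0.05. H2-Ob had the largest value, -0.7 (SE 0.31, unadjusted p = 0.0467, adjusted p = 0.966). Its treatment difference was -0.52 in fatty liver and 0.18 in healthy liver. The interval for H2-Ab1, -0.93 to 1.09, shows the width of what remained undecided for the chain genes.

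**Figure D3:**
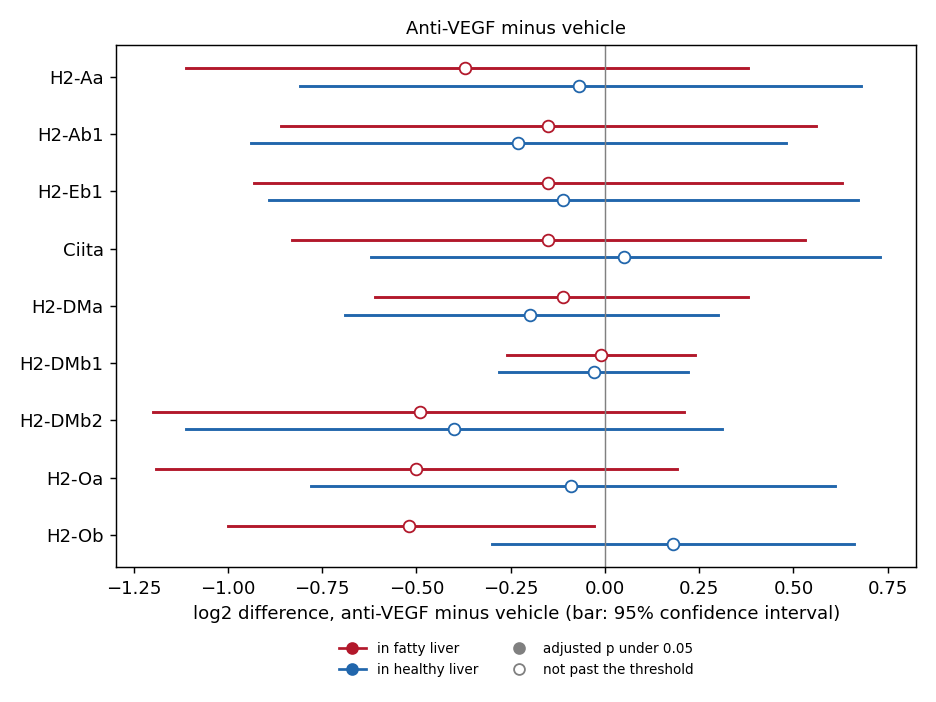
Log2 difference of each class II gene between anti-VEGF and vehicle in fatty liver (upper of each pair) and healthy liver (lower), with 95% intervals from limma; open points mark adjusted p of 0.05 or more. All 18 points are open and lie between -0.52 and 0.18.

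The genes that prepare peptide and trim the invariant chain rose with class II in fatty liver. Of 10 tested, 9 were called higher by limma under anti-VEGF, and 8 higher and 1 lower under vehicle. Over all tested genes 18.2% and 19.2% were called higher and 27.6% and 30.4% lower under anti-VEGF and vehicle. These shares are the background for each pathway and marker list below. Ctss, cathepsin S, the main protease for the invariant chain in dendritic cells and B cells, read 11.92, 11.99 and 11.96 in fatty liver under anti-VEGF and 9.7, 9.64 and 9.69 in healthy liver under anti-VEGF, a log2 difference of 2.28 (adjusted p = 0.000142). Ctsh, cathepsin H, differed by 2.6 under anti-VEGF and 2.1 under vehicle (adjusted p = 8.48e-05 and 0.000388). Ifi30, the thiol reductase GILT that opens disulfide bonds of antigens, differed by 0.83 and 0.67, and Lgmn, asparagine endopeptidase, by 0.79 and 0.72, all called. Ctsl, cathepsin L, was the gene called lower under vehicle (-0.21, adjusted p = 0.0487), a call lost when any of 8 arrays was left out singly. The median of the list was 0.69 under anti-VEGF and 0.63 under vehicle. With alike arrays averaged, 2 and 1 of the 10 were called higher, as were 487 and 594 of all 13286 genes. The same holds as background for the averaged counts of the lists below.

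The promoter factors through which Ciita works gave no call in the higher direction. Of 7 tested, the subunits of RFX and NF-Y and Creb1, 0 were called higher by limma under either treatment. Under vehicle Rfx5, the DNA-binding subunit of RFX, was lower in fatty liver, with 7.9, 7.62 and 7.68 in fatty liver and 8.45, 7.88 and 8.45 in healthy liver (log2 -0.53, SE 0.15, adjusted p = 0.0159). That call was lost without array 1 or 3 of healthy liver or array 2 of fatty liver under vehicle. Under anti-VEGF Rfx5 differed by -0.27 (adjusted p = 0.171) and Nfyb, an NF-Y subunit, by -0.3 (adjusted p = 0.0927). Without array 3 of fatty liver under anti-VEGF, 1 of the 7 was called higher and 1 lower there.

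Genes that induce Ciita, the interferon gamma system and factors of its promoters, rose in most cases. Limma called 9 of 10 higher under anti-VEGF and 8 of 10 under vehicle, with list medians of 1.27 and 1.31. Irf4, called under both, lay below the limit on all healthy liver arrays, and without it the counts were 8 and 7 of 9. Ifng, still among them, was above the limit on 8 arrays, too few of them in healthy liver to pass the filter of 3 alone. Irf8, a factor of myeloid and dendritic lineages, differed by 2.52 and 1.97 (adjusted p = 1.76e-05 and 0.000118), and Spi1, which encodes PU.1, by 2.44 and 2.14. Ifngr1, the ligand-binding chain of the interferon gamma receptor, differed by 1.6 and 1.63. Ifng itself read 6.83, 6.91 and 5.24 in fatty liver under anti-VEGF and 4.8, 4.72 and 4.48 in healthy liver under anti-VEGF. In vehicle tumours Ifng read 6.15, 8 and 6.56 in fatty liver and 4.78, 5.02 and 4.97 in healthy liver. Its fatty liver arrays lay above the healthy liver arrays, which were at or near the limit, and its log2 difference was 1.66 (adjusted p = 0.0204) and 1.98 (adjusted p = 0.00838). The anti-VEGF call for Ifng was lost when any of 4 arrays was left out singly. Jak1, a kinase of that receptor, differed by 0.05 under each treatment and was not called. With alike arrays averaged, 2 and 3 of the 10 were called.

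Regulators of class II at the cell surface moved in opposite directions. Of 6 tested, limma called 5 higher and 1 lower under each treatment. Marchf1, the ubiquitin ligase that sends class II to degradation, was higher by 1.55 under anti-VEGF and 0.86 under vehicle (adjusted p = 2.11e-05 and 0.000487). Cd83, which opposes it in dendritic cells, was higher by 2.49 and 2.56, Il10, which induces it in human monocytes, by 2.92 and 2.74, and Il10ra, a chain of the receptor for Il10, by 3.32 and 2.65. Marchf8, a related ligase, was lower in fatty liver, with 8.45, 8.55 and 8.91 in fatty liver under anti-VEGF and 9.25, 9.14 and 9.15 in healthy liver under anti-VEGF (log2 -0.54, adjusted p = 0.0233), and by -0.65 under vehicle (adjusted p = 0.00943). Its anti-VEGF call was lost when any of 5 arrays was left out singly. With alike arrays averaged, 4 of the 6 were called higher and 0 lower under each treatment.

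On the side of CD4 T cell contact, limma called 9 of 9 tested genes higher in fatty liver under each treatment, with medians of 1.14 and 1.5. Cd86 and Cd80, the costimulatory ligands, were higher by 2.8 and 2.91 under anti-VEGF and 2.61 and 3.06 under vehicle. Cd4, the coreceptor of T helper cells that binds class II, was higher by 1.72 and 2.04 (adjusted p = 0.000423 and 0.00023), and Icosl by 1.06 and 1.1. Cd40lg lay below the limit on all arrays. Cd28 and Ctla4, among the 9 called, were each above it on 8 arrays. Too few of these were healthy liver arrays to pass the filter of 3 alone. The anti-VEGF count was 4 of 9 without array 1 or 2 of fatty liver and 5 of 9 without array 1 or 2 of healthy liver, and with alike arrays averaged it was 0 under anti-VEGF and 1 under vehicle.

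**Figure D4:**
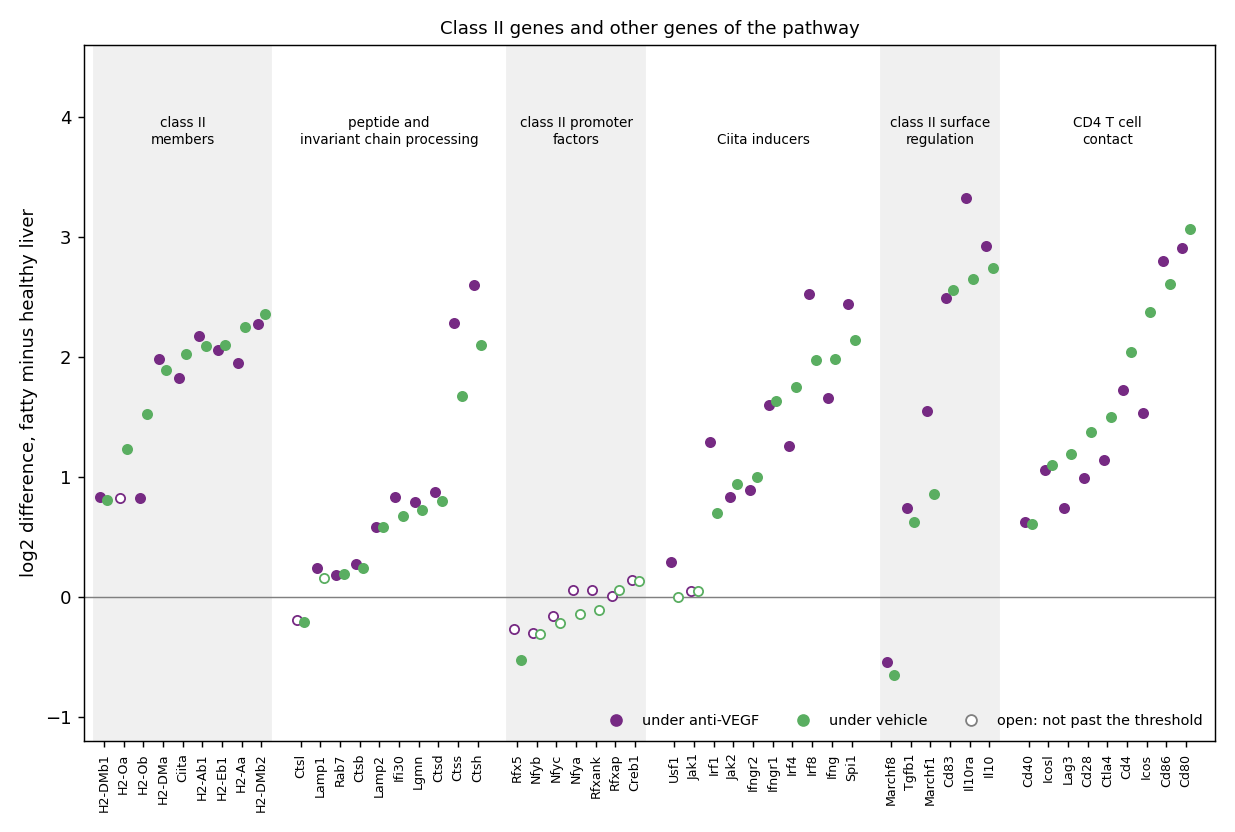
Log2 difference between fatty and healthy liver tumours under anti-VEGF (left of each pair) and vehicle (right) for the class II genes and 5 lists of the pathway, ordered within a list by the vehicle difference. Filled points passed limma's adjusted p of 0.05; the promoter factors stay near 0, from -0.53 to 0.14, while Il10ra reaches 3.32.

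Cells that carry class II were followed through markers. Macrophage markers were higher in fatty liver for 10 of 11 tested genes under each treatment by limma, Csf1r by 2.84 and 2.47 and Adgre1 by 2.43 and 1.97. Their mean level per array was 10.71 to 11.03 in fatty liver under anti-VEGF and 10.94 to 10.97 under vehicle, and 9.01 to 9.04 in healthy liver under anti-VEGF and 9.16 to 10.01 under vehicle. Cd163 was below the limit on every array. Vehicle array 2 of healthy liver, high in class II chains, was also the highest healthy liver array for macrophage markers, at 10.01 against 9.16 and 9.2. The part of macrophage markers in the class II difference was not tested.

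Dendritic cell markers were called higher by limma for 6 of 8 tested genes under each treatment. Their mean was 6.09 to 7.29 in fatty liver under anti-VEGF and 7.24 to 7.41 under vehicle, and 5.53 to 5.62 in healthy liver under anti-VEGF and 5.54 to 5.86 under vehicle. Flt3 and Clec10a, called under both, lay below the limit on every healthy liver array, so they were tested only through fatty liver. Without them the count was 4 of 6 under each treatment. That count still holds Batf3 and Siglech, above the limit on 8 and 6 arrays. Too few of these were healthy liver arrays to pass the filter of 3 alone. Itgax, which encodes CD11c and is shared with macrophages, was higher by 3.43 and 2.76. Xcr1, of cross-presenting dendritic cells, lay at or below the limit on all arrays, and Zbtb46 and Cd209a were not called. Under anti-VEGF the count fell to 2 or 3 of 8 without array 1 or 2 of fatty liver or any array of healthy liver.

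Array 3 of fatty liver under anti-VEGF differed from the other arrays of its group gene by gene. Relative to their mean it read -1.29 for H2-Oa, -0.88 for H2-DMb2, -0.81 for Ciita and -0.6 for H2-Ob, and between -0.39 and -0.03 for the chains, H2-DMa and H2-DMb1. Of the 9 T and NK cell markers all 9 were lowest of the group on this array, of 9 dendritic cell markers 5 and of 12 macrophage markers 6. The same held for 10 of 10 Ciita inducers and 10 of 10 genes of CD4 T cell contact. It held for 4 of 10 processing genes, 3 of 6 genes of surface regulation and 2 of 7 promoter factors. The share over all tested genes was not counted, so these counts have no background beside them. Among the dendritic cell markers, Flt3, the growth factor receptor of dendritic cell precursors, read 4.59 there, against 6.81 and 7.61, and Ccr7, of migrating dendritic cells, 6.75, against 9.56 and 10.42. Itgax read 9.97, against 9.83 and 9.89, and Batf3, a factor of dendritic cells, 6.2, against 6.01 and 6.17. Clec10a, at 5.36, lay between the 4.33 and 5.53 of the others. Their part in the values of the class II genes was not tested. Without array 3 the anti-VEGF liver differences of the 9 class II genes ran from 0.84 to 2.56.

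B cell markers were split. Of 4 tested, Cd22 and Cd79b were called higher in fatty liver and Cd79a and Pax5 lower, under both treatments. Over all tested genes 18.2% and 19.2% were called higher and 27.6% and 30.4% lower. The anti-VEGF call of Pax5 was lost when any of 9 arrays was left out singly, and with alike arrays averaged Cd22 alone was called under either treatment. Ms4a1, Fcer2a and Cr2, which define mature B cells, lay below the limit on all arrays. Cd22 differed by 1.99 and 1.58, Cd79a by -1.05 and -0.97. The list mean lay between 5.13 and 5.45 in fatty liver under anti-VEGF, 5.15 and 5.3 in fatty liver under vehicle, 4.81 and 4.91 in healthy liver under anti-VEGF and 4.85 and 4.93 in healthy liver under vehicle.

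T and NK cell markers were called higher in fatty liver for 7 of 9 genes under anti-VEGF and 9 of 9 under vehicle. Gzma, Ncr1 and Cd3d lay below the limit on all healthy liver arrays and were tested only through fatty liver. Without these 3 the count was 6 of 6 under each treatment. Klrd1, still in that count, was above the limit on 7 arrays, too few of them in healthy liver to pass the filter alone. The mean of the 9 markers was 5.48 to 8.07 in fatty liver under anti-VEGF and 8.03 to 8.67 under vehicle. In healthy liver it was 4.89 to 4.98 under anti-VEGF and 4.99 to 5.48 under vehicle. With alike arrays averaged the counts under anti-VEGF and vehicle were 7 and 5 of 11 for macrophages, 2 and 2 of 8 for dendritic cells and 0 and 1 of 9 for T and NK cells. Of all 13286 genes 487 and 594 were called higher in that fit. Endothelial markers, whose cells can be induced to carry class II, averaged 8.79 on vehicle array 2 of healthy liver, against 5.5 on its group mates. In fatty liver they averaged 7.59 on vehicle array 2, against 6.11 and 6.06, and 7.16 on anti-VEGF array 1, against 5.94 and 5.92. Of 7 tested, 2 were called higher in fatty liver by limma under anti-VEGF and 1 under vehicle, beside 18.2% and 19.2% of all tested genes. Their part in the class II difference was not tested. Of the labelled tumour's own type, Epcam, Krt19, Krt20 and Vil1 lay below the limit on all 12 arrays. Cdx2 lay above it on 4 arrays, with group means of 4.83 to 5.05, and was not called between livers. Of the hepatocyte genes, Alb, Cyp2e1, Serpina1a, Fgb and Cps1 lay below the limit on all 12 arrays too. The hepatocyte genes Apoa1, Apoa2 and Ttr lay above the limit on all 12 arrays, with group means of 5.15 to 5.75. Among these Apoa1 was called lower in fatty liver under anti-VEGF, a call lost when any of 5 arrays was left out singly. Krt8 and Krt18, keratins of simple epithelia, were above the limit and were called lower in fatty liver, by -0.87 and -1.28 under anti-VEGF and by -0.84 and -0.88 under vehicle. Cdh1, E-cadherin, was called higher by 1.61 and 2.37, under anti-VEGF a call lost when any of 4 arrays was left out singly. None of Krt8, Krt18 and Cdh1 was called by limma with alike arrays averaged, with adjusted p of 0.0819 to 0.3, and their part in the class II difference was not tested.

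**Figure D5:**
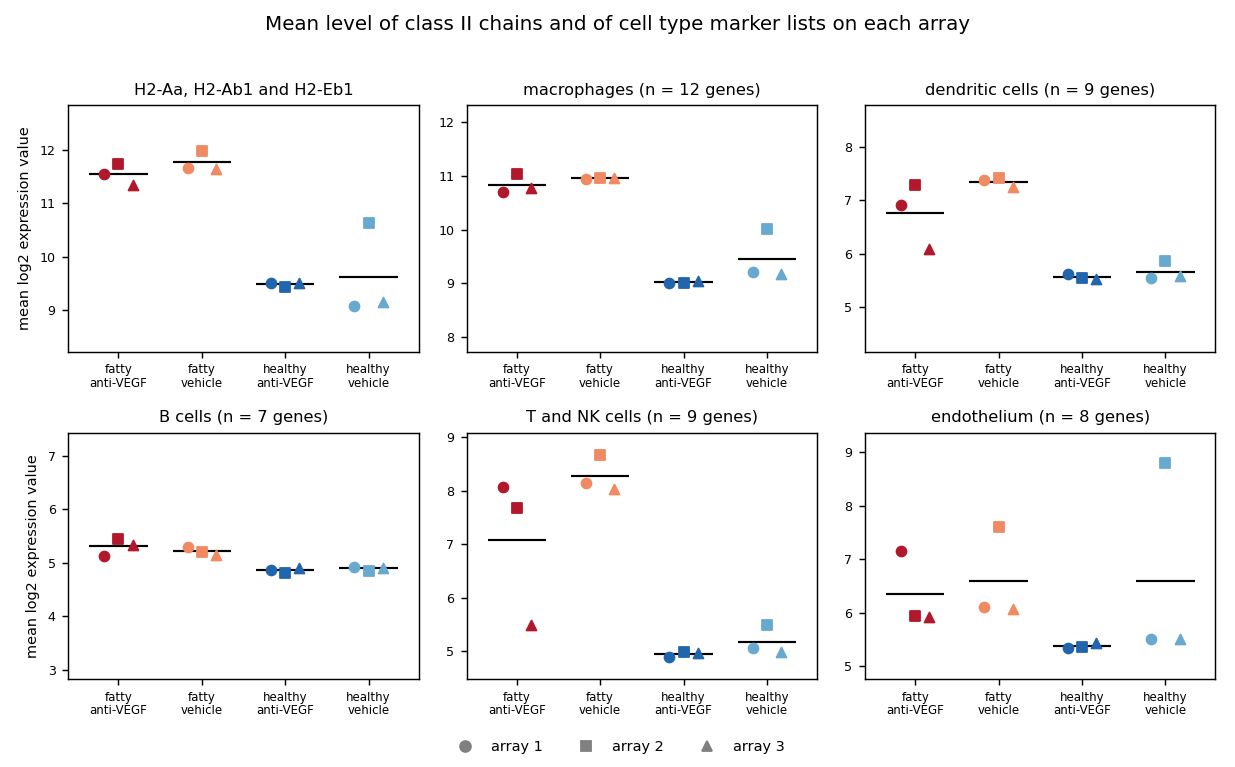
Mean log2 expression value per array of H2-Aa, H2-Ab1 and H2-Eb1 and of 5 cell type marker lists, with tumours in fatty liver under anti-VEGF, fatty liver under vehicle, healthy liver under anti-VEGF and healthy liver under vehicle from left to right; points are arrays and lines are means of 3. Array 3 (triangle) of fatty liver under anti-VEGF is low for dendritic cells (6.09) and T and NK cells (5.48). It is also the lowest of its group for class II chains, by less (11.33, against 11.55 and 11.72). Array 2 (square) of healthy liver under vehicle is high for class II chains (10.63), macrophages (10.01) and endothelium (8.79). For endothelium, array 2 of fatty liver under vehicle (7.59) and array 1 of fatty liver under anti-VEGF (7.16) also stand above their groups.

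Genes whose profile came closest to the mean of the 3 chains over the 12 arrays were Fcgr3, an activating Fc receptor, with a root mean square difference of 0.14, Sqor and Dipk2a with 0.18 each, and Rgs2 and Rac2 with 0.19 each. The median over 12215 candidate genes was 1.2. Fcgr3 differed between livers by 2.23 under anti-VEGF and 2.15 under vehicle (limma adjusted p = 0.000115 and 0.000218). Nearest to Ciita were Hrh2, the histamine H2 receptor (0.15), Pag1 (0.16), Smox, spermine oxidase (0.17), Dusp2 and Rcsd1 (0.18 each), where the median was 1.1. These likenesses describe 12 arrays that share their liver split.

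All members but Ciita and Cd74 lie together on chromosome 17 in RefSeq order, H2-Oa, Brd2, H2-DMa, H2-DMb2, H2-DMb1, Psmb9, Tap1, Psmb8, Tap2, H2-Ob, Gm20506, H2-Ab1, H2-Aa, H2-Eb1, H2-Eb2. The difference was not shared by every gene of the stretch. Brd2, a chromatin reader gene between H2-Oa and H2-DMa, differed between livers by 0.01 under anti-VEGF and 0.18 under vehicle (limma adjusted p = 0.901 and 0.0968), and Tap2, a peptide transporter subunit of class I, by 0.23 and 0.02 (adjusted p = 0.112 and 0.916). Psmb9, Tap1 and Psmb8, class I genes in the same stretch, were called higher, by 1.1, 1.19 and 1.08 under anti-VEGF and by 0.84, 0.68 and 0.92 under vehicle. Ciita lies on chromosome 16, apart from its targets.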

How the data were processed

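RNA of tumour tissue was hybridised to 12 Affymetrix whole-transcript arrays, and the authors deposited 1 log2 value per row and array, which was used as given. Affymetrix Expression Console is named per the submitters' processing notes; for its version, normalization and build the labels give nothing, and the log2 scale was read from the values. Of 41345 rows, 23521 have 1 gene symbol in the platform annotation, 1814 several and 16010 none. Where a gene had more than 1 row, that with the highest mean over all arrays was taken. A gene was tested where it lay above 4.93 on at least 3 arrays.

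A limma fit (version 3.58.1, R 4.3.3) of 4 group means over 12 arrays gave 5 contrasts, with 8 residual and 2.4 prior degrees of freedom and a Benjamini-Hochberg threshold of 0.05 over 13286 genes. On simulated data for these genes it recovered 98.5% of changes of 2 on the log2 scale for the liver comparison under anti-VEGF and 100% under vehicle, with 7 false calls each. For changes of 1 it recovered 71.6% and 73.1%, and for changes of 0.5 it recovered 35.8% and 46.3%. The simulated noise was independent between arrays with 1 spread per gene, so alike arrays and unequal group spreads were not simulated. Arrays have no read depth, and their number limits the precision.

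The members and lists were chosen with earlier results of these data known. All members are named, up to 4 genes of each list by smallest p, and the 5 genes nearest in profile. Cd74 was to enter the chain mean and had no row of its own, so the mean is of H2-Aa, H2-Ab1 and H2-Eb1. Individual genes named beyond this rule, in the paragraphs on cell markers, neighbours, Jak1, Ctsl and Nfyb, were chosen after their values were seen. The labels number arrays 1 to 3 in each group. Same-numbered arrays deviated together from their group means (correlation over 0.1 in each of 3 pairs) between fatty and healthy liver under vehicle, at 0.536, 0.701 and 0.549, and in no other pair of groups; this pairing comes from the data alone, and the replicate number as a block is an alternative. Other alternatives changed the filter, normalization, centring, row choice, variance model, array weights, arrays in the fit and each array in turn.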

Additional observations from a re-analysis of the deposited data

How the results depend on the processing

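In the comparisons between livers the 9 genes kept their direction in every fit run, and 7 to 9 were called under anti-VEGF or vehicle in each fit but that with alike arrays averaged, which called 1 under anti-VEGF and 5 under vehicle, with 510 and 721 of all genes; fewer arrays entered that fit. With the replicate number as a block, 9 of 9 genes were called under both treatments (H2-Oa under anti-VEGF with an adjusted p of 0.0292), and 9 of 9 when the block was fitted to the vehicle groups alone (6 arrays); the block changed no other member's call. H2-Oa under anti-VEGF was also called with quantile normalization (0.0472) and array weights (8.09e-06). Counts over all genes moved further. Array weights gave 9884 between livers under anti-VEGF, 1848 and 1661 for anti-VEGF in fatty and healthy liver and 1477 for the interaction, and the cause was not tested. For anti-VEGF in fatty liver the count was 0 with the replicate block, with alike arrays averaged, with only the groups compared, without the vehicle arrays high in Xist and without the 2 arrays apart, and 0 to 11 without single arrays. In healthy liver it was 2 with array medians subtracted, 9 with a trended and robust variance, 47 with only the groups compared, 754 without the arrays high in Xist (4 members), 39 without the 2 arrays apart and 0 to 41 without single arrays. Without the arrays high in Xist it was 1057 between livers under vehicle and 19 for the interaction, which without the 2 arrays apart was 1. In that fit without the arrays high in Xist, with 1 vehicle array left in each liver, the vehicle lists had 2 of 10 (processing), 5 of 10 (Ciita inducers), 3 of 6 (surface regulation), 0 of 9 (CD4 T cell contact), 5 of 11 (macrophages), 1 of 8 (dendritic cells) and 1 of 9 (T and NK cells) called higher. Over all genes, single arrays left out gave 4274 to 7475 between livers under anti-VEGF and 4689 to 7337 under vehicle.

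Sign changes were seen among uncalled treatment and interaction differences, and the cause was not tested. For anti-VEGF in fatty liver, array weights gave H2-Ab1 0.03, H2-Eb1 0.17, Ciita 0.24, H2-DMa 0.2, H2-DMb1 0.18, H2-DMb2 0.04 and H2-Oa 0.25, and Ciita was 0.12 without the 2 arrays apart. Without single arrays, Ciita ran from -0.32 to 0.12, H2-DMa from -0.22 to 0.04 and H2-DMb1 from -0.1 to 0.07. For anti-VEGF in healthy liver, array weights and the fit without the 2 arrays apart gave H2-Aa 0.37 and 0.43, H2-Ab1 0.21 and 0.26, H2-Eb1 0.37 and 0.42 and H2-DMa 0.06 and 0.09. Ciita was -0.08 with alike arrays averaged and -0.48 without the arrays high in Xist. H2-DMb1 was 0.02 with quantile normalization, 0.04 with medians subtracted and 0.02 with array weights. Without single arrays, H2-Aa ran from -0.33 to 0.43, H2-Ab1 from -0.48 to 0.26, H2-Eb1 from -0.42 to 0.42, Ciita from -0.17 to 0.32, H2-DMa from -0.38 to 0.09 and H2-DMb1 from -0.12 to 0.05. For the interaction, the fit without the arrays high in Xist gave H2-Aa 0.46, H2-Eb1 0.81 and H2-DMb2 0.16, and alike arrays averaged gave H2-Eb1 0.17. Medians subtracted gave H2-Ab1 -0.008, H2-DMa -0.002 and H2-DMb1 -0.07, and quantile normalization gave H2-DMb1 -0.04. Array weights gave H2-Ab1 -0.18, H2-DMb2 0.17 and H2-Oa 0.31, and the fit without the 2 arrays apart, chosen after seeing the data, gave H2-Ab1 -0.33, H2-DMa -0.16 and H2-Oa 0.002. Without single arrays the interaction ran from -0.47 to 0.07 for Ciita, -0.41 to 0.33 for H2-Ab1, -0.57 to 0.27 for H2-Eb1, -0.2 to 0.27 for H2-DMa, -0.07 to 0.11 for H2-DMb1, -0.42 to 0.2 for H2-DMb2 and -0.71 to 0.02 for H2-Oa.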
